A study of Mus musculus with 6 samples.

Results

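Endothelial and mural cell genes were compared between cerebral cortex of Fezf2 KO and wild type mouse pups at postnatal day 0. The group comprised 35 named genes, each matched by symbol to 1 row of a table of 23016 rows. The genes were listed by name, with earlier results of these data known. The Fezf2 KO group held 3 Fezf2-/- pups and the wild type group 3 Fezf2+/+ pups, both from crosses of Fezf2+/- parents, with 1 total RNA library from each brain. Litter m1 gave libraries 1 and 2 of each genotype, and litter m2 gave library 3 of each. FEZF2 is a transcription factor that subcortical projection neurons of the deep layers need for their identity. The pups carried the null genotype in all cells, so the comparison asks about vessel genes in a cortex that developed without this neuronal factor.

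Brain capillaries are tubes of endothelial cells sealed by tight junctions and fed by selective transporters, which together form the blood-brain barrier. Pericytes, and on larger vessels smooth muscle cells, are the mural cells that wrap them. Endothelial cells send PDGF-B to the receptor PDGFRB on pericytes, and the angiopoietins act on the Tie receptors of the endothelium. Vessels are a small share of cortical tissue. In whole tissue, fewer cells of a type and less RNA per cell cannot be told apart.

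The recovered gene reads numbered between 44978380 and 52872577 per library. Fezf2 itself had normalised read counts of 1377 to 1989 in Fezf2 KO cortex and 5030 to 5928 in wild type cortex. Which exons the null allele retains is not stated in the labels. In markers of meninges, choroid plexus or sex, 3 libraries stood apart. Wild type 1 had a summed level of 14879 over 15 meningeal fibroblast genes, against 3507 to 4986 in the other libraries. Of these genes 12 were tested, 11 with a log2 change below 0 and 0 called. None of the 15 was at 0 in all libraries. Fezf2 KO 1 had 9914 over 9 choroid plexus genes, against 204 to 320 in the others. Of these genes 6 were tested, 5 with a log2 change above 0 (median 0.91) and 0 called by limma. A limma unadjusted p under 0.05 was reached by 2 (33.3%, against 9.03% of all genes). Ttr had 8950, 65.6 and 68 reads in Fezf2 KO 1, 2 and 3, and 13.1, 15.7 and 9.45 in wild type 1, 2 and 3 (limma adjusted p = 0.401). Wild type 2 was the single library with Xist reads above the floor of 3 reads (3782 normalised reads). The 9 rows of erythroid genes summed to 14202 in Fezf2 KO 1 and to 8735 to 11495 in the other libraries. Fezf2 KO 1 was the highest library in all 5 erythroid rows tested (24.1% of all genes). The 14 microglia and leukocyte genes summed to 4044 to 4526 in Fezf2 KO and 4155 to 5307 in wild type libraries. Of 13 tested, 3 had a log2 change above 0 (51% of all genes), 10 below, and limma called 0. Wild type 1 was highest in 10 (13.4% of all genes). Only Mrc1 had a limma unadjusted p under 0.05 (log2 -1.74), which is 7.69%, against 9.03% of all genes. Striatal genes leaned lower in Fezf2 KO, although their sums overlapped (8545 in Fezf2 KO 2 and 7967 in wild type 3). Of 12, 11 had a log2 change below 0 (median -1.21). A limma unadjusted p under 0.05 was reached by 10 (83.3%, against 9.03% of all genes), and 0 were called. By DESeq2 4 reached that level (8.14% of all genes) and 1, Penk, was called (2.3% of all genes). In litter m1 alone 3 reached it by limma (6.9% of all genes). Of 13 cortex markers 11 had a log2 change above 0 (51% of all genes), with a median of 0.12. Limma called 1 of them, Slc17a6, and 0.712% of all genes. Bcl11b went the other way, with 5534 to 9755 reads in Fezf2 KO and 11760 to 14713 in wild type cortex (log2 -0.84, limma adjusted p = 0.114). Fezf2 KO 1 was the highest library in 9 of the 13 markers (69.2%, against 24.1% of all genes). The part of tissue make-up in the vessel genes was not tested.

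All 35 genes were detected in every library, with at least 24 reads each, and all passed the filter of a normalised count of 10 in 3 libraries. None of the 35 changed between genotypes at an adjusted p under 0.05 over the 17557 genes tested with limma, where 0.712% of all genes did. The lowest adjusted p was 0.283, for Tie1. The test in edgeR called 0 of the 35 and 0.689% of all genes, and DESeq2 called 0 of the 35 and 2.3% of all genes. At an unadjusted p under 0.05 limma passed 6 of the genes, all higher in Fezf2 KO (17.1%, against 4.66% of all genes tested higher and 9.03% in either direction): Tie1, Kcnj8, Tek, Sox18, Ly6c1 and Abcb1a. By edgeR with TMM factors 5 passed that level (9.1% of all genes did) and by DESeq2 4 (8.14% of all genes).

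The log2 changes were small and leaned upward. Of the 35 genes 25 had a log2 change above 0 in Fezf2 KO cortex, as 51% of all genes tested did, and the median was 0.13, against 0.00 (0.0025) over all genes tested. The changes ran between -0.27 for Tagln and 0.50 for Abcc9. In 8 genes every Fezf2 KO library lay above every wild type library (22.9%, against 7.6% of all genes tested). In 2, Emcn and Tagln, every Fezf2 KO library lay below (5.71%, against 6.85%). The 95% interval of the change stayed within 2-fold in either direction for 34 of the 35 genes, with Abcc9 as the exception, and within 1.5-fold for 27.

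**Figure D1:**
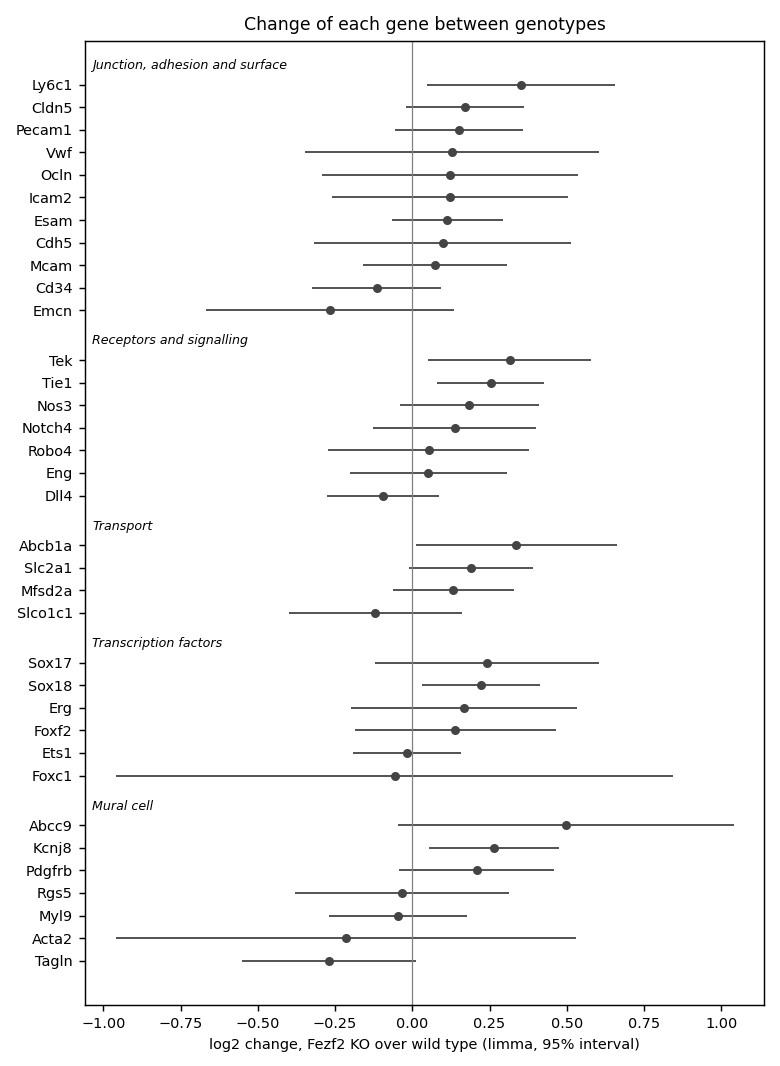
Log2 change of each of the 35 genes, Fezf2 KO over wild type (horizontal axis, points), with its 95% interval from limma (lines), by role. Tek, Tie1, Kcnj8, Sox18, Ly6c1 and Abcb1a have intervals above 0, and none of the 35 passed an adjusted p of 0.05.

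Much of that lean rested on wild type 3. It was the lowest of the 6 libraries in 22 of the 35 genes, whereas it was lowest in 20.1% of all genes tested. Fezf2 KO 1 was the highest library in 13 of the 35 (37.1%, against 24.1% of all genes tested). Without Fezf2 KO 1, 26 of the 35 had a log2 change above 0 (50.4% of all genes), with a median of 0.11. With each gene's log2 values centred on its own mean, the median over the 35 genes in Fezf2 KO libraries 1, 2 and 3 was 0.10, 0.06 and 0.04. In wild type libraries 1, 2 and 3 it was 0.07, -0.00406 and -0.23. Wild type 3 therefore stood below the other 5 libraries, which lay close together. The spread among the wild type libraries (SD of log2) exceeded that among the Fezf2 KO libraries in 27 of the 35 genes, and in 47.3% of all genes tested. Without wild type 3, 20 of the 35 genes had a log2 change above 0 (52.4% of all genes), with a median of 0.05. At an unadjusted p under 0.05, 4 of the 35 then passed, 2 of them higher in Fezf2 KO, where 7.88% of all genes passed. Without wild type 1, 30 of the 35 were above 0 (49.8% of all genes), with a median of 0.21. At an unadjusted p under 0.05, 9 of the 35 then passed, all higher in Fezf2 KO, and 7.46% of all genes.

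The split by litter reused the same values, since wild type 3 was the single wild type library of litter m2, and is no separate support. In litter m1, with 2 libraries per genotype, 21 of the 35 genes were higher in Fezf2 KO (52.3% of all genes), with a median log2 difference of 0.06. There limma called none of the 35 and 0.165% of all genes, and 1 of the 35 reached an unadjusted p under 0.05, as 6.9% of all genes did. In litter m2 the difference is between 1 library of each genotype and has no test; 29 of the 35 were higher in Fezf2 KO 3 than in wild type 3 (47.6% of all genes), with a median of 0.26. With litter as a block in limma, 0 of the 35 were called (0.786% of all genes) and 9 had an unadjusted p under 0.05, all higher in Fezf2 KO, where 10.5% of all genes reached that level.

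**Figure D2:**
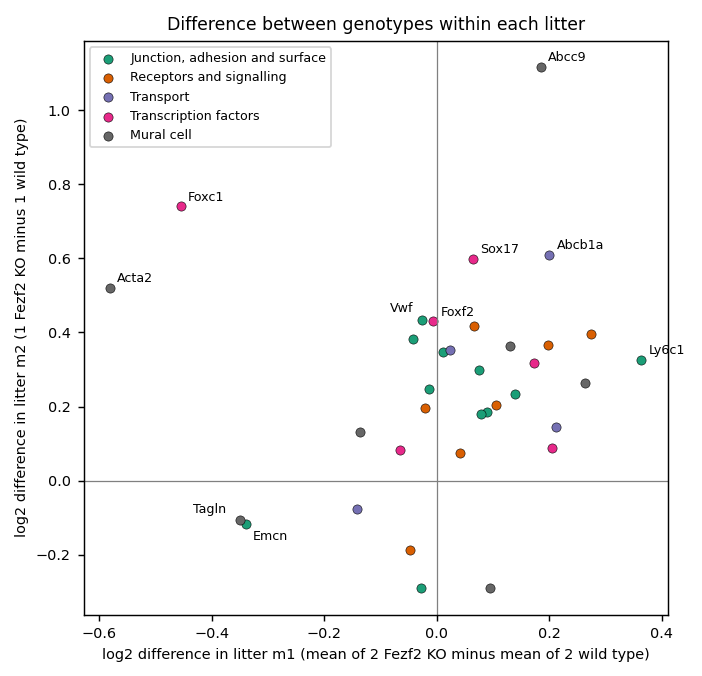
Log2 difference between Fezf2 KO and wild type within litter m1 (horizontal axis, mean of 2 libraries minus mean of 2) and within litter m2 (vertical axis, 1 library minus 1), 1 point per gene, coloured by role. In litter m2 29 of the 35 genes lie above 0, and in litter m1 21. Acta2 and Foxc1 are among the genes on opposite sides of 0 in the 2 litters.

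Among junction, adhesion and surface genes, 9 of 11 had a log2 change above 0 and 0 changed. Cldn5 encodes claudin-5, the main claudin of brain endothelial tight junctions. It had 5423, 4842 and 4662 normalised reads in Fezf2 KO 1, 2 and 3, and 4717, 4597 and 3961 in wild type 1, 2 and 3. The genotypes overlapped, since Fezf2 KO 3 lay below wild type 1, and the log2 change was 0.17 (SE 0.083, limma adjusted p = 0.615). Pecam1, the adhesion molecule of endothelial cell contacts, had 1016, 1005 and 977 reads in Fezf2 KO and 981, 938 and 793 in wild type cortex. Here 5 libraries lay near each other and wild type 3 below them (log2 0.15, SE 0.090, limma adjusted p = 0.726). Cdh5 encodes VE-cadherin of the adherens junctions. It had 1175, 1049 and 951 reads in Fezf2 KO and 1248, 1048 and 730 in wild type cortex, with the highest and the lowest value both in wild type (log2 0.10, SE 0.181, limma adjusted p = 0.943). Without wild type 3 its log2 change was -0.12.

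Ly6c1, a GPI-anchored surface antigen of brain endothelium and of some leukocytes, had 172, 163 and 165 reads in Fezf2 KO, against 114, 148 and 131 in wild type cortex. Its genotypes did not overlap (log2 0.35, SE 0.133, limma adjusted p = 0.458), and the change was 0.36 without wild type 3. Reads of its near-identical neighbour Ly6c2 could be counted for either gene. The Ly6c2 row held 31 reads over the 6 libraries together, against 1026 for Ly6c1. Its normalised mean was 6.38 in Fezf2 KO and 2.67 in wild type cortex. Ly6c2 reads counted for Ly6c1 would leave that row low, so its count cannot tell the genes apart. Emcn, which encodes the sialomucin endomucin of venous and capillary endothelium, went the other way, with 45.5, 35.9 and 45.9 reads in Fezf2 KO and 50.5, 52.4 and 49.8 in wild type cortex. All Fezf2 KO values were below all wild type values, at 40 to 60 reads per library (log2 -0.27, SE 0.175, limma adjusted p = 0.761).

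The other junction and surface genes overlapped between genotypes. Their log2 changes were 0.11 for Esam, an endothelial adhesion molecule, 0.12 for Icam2, a ligand of leukocyte integrins, and 0.07 for Mcam, an adhesion molecule of endothelial and mural cells. Ocln, which encodes the tight junction protein occludin, had a log2 change of 0.12, and Cd34, a sialomucin of endothelial and blood progenitor cells, of -0.12. Vwf encodes von Willebrand factor, stored by endothelial cells. It had 1259 to 1655 reads in Fezf2 KO and 932 to 1628 in wild type cortex (log2 0.13). The direction of Vwf, Icam2 and Mcam turned when wild type 3 was left out.

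**Figure D3:**
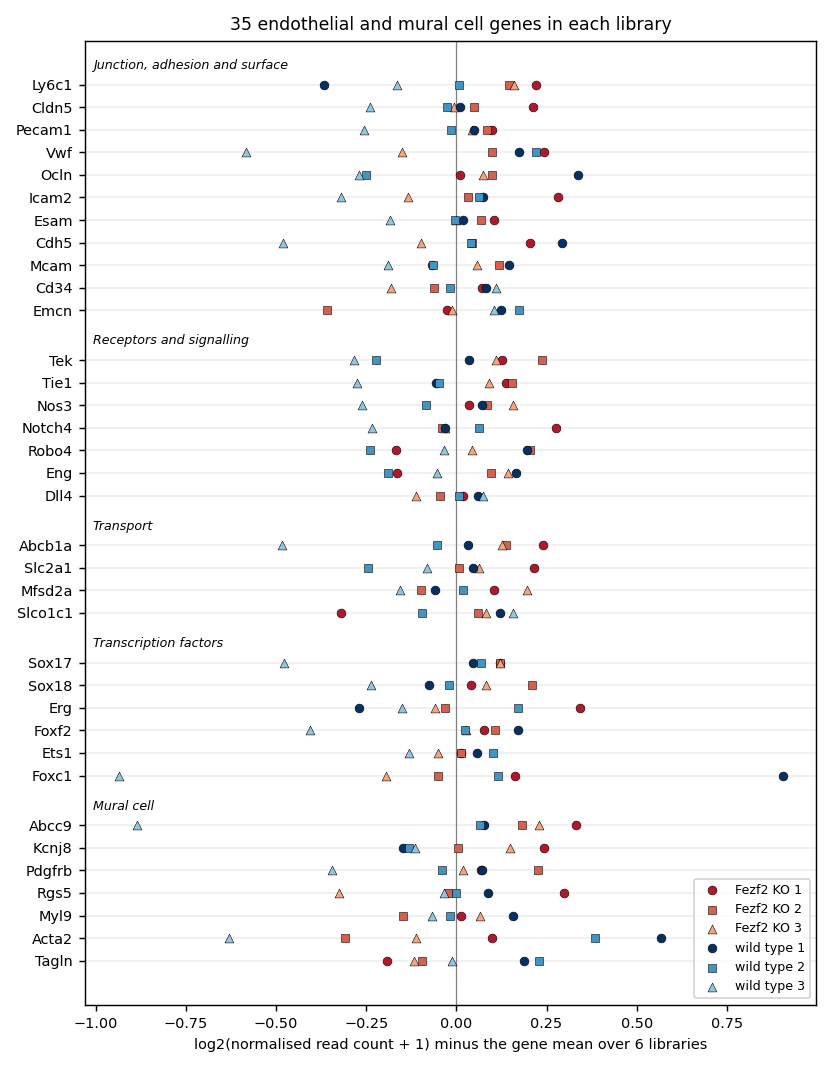
Log2(normalised read count + 1) of each gene in each library minus that gene's mean over the 6 libraries (horizontal axis), by role; red symbols are Fezf2 KO and blue symbols wild type libraries. Wild type 3 (light blue triangles) is the lowest library in 22 of the 35 genes, and Foxc1 has the widest spread, with wild type 1 at the upper end and wild type 3 at the lower.

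Of the 7 receptor and signalling genes, 6 had a log2 change above 0 and 0 changed. The pair of Tie receptor tyrosine kinases had the lowest p values. Tie1, an orphan receptor that modulates signalling of its partner, had 1781, 1800 and 1723 reads in Fezf2 KO, against 1556, 1565 and 1337 in wild type cortex. Tek, which encodes TIE2, the receptor that binds angiopoietins, had 317, 342 and 314 reads in Fezf2 KO and 298, 249 and 238 in wild type cortex. In both genes the genotypes did not overlap, with log2 changes of 0.25 (SE 0.076, 95% interval 0.08 to 0.43, limma adjusted p = 0.283) for Tie1 and 0.31 (SE 0.114, 95% interval 0.05 to 0.58, limma adjusted p = 0.423) for Tek. Without wild type 3 the log2 changes were 0.18 for Tie1 and 0.25 for Tek. DESeq2 gave Tie1 an adjusted p of 0.147, and over all alternatives run it lay between that and 0.626, for limma in litter m1 alone.

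Because the Tie receptors had the lowest p values of the signalling genes, the 250 bases before their annotated starts are shown, from RefSeq on GRCm38.p6. For Tie1 (chr4:118489850-118490099, minus strand) capitals mark the ETS core AGGAAG or CGGAAG on either strand. For Tek (chr4:94739039-94739288, plus strand) capitals mark the SOX core ACAAAG or ACAAT on either strand. ETS factors such as ERG and ETS1, and SOX17 and SOX18, are endothelial transcription factors of these families.
Tie1: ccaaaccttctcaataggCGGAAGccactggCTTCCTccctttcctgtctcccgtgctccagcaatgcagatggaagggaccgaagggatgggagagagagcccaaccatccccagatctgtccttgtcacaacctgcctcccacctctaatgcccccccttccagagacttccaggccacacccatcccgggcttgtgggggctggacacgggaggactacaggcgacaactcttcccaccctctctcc
Tek: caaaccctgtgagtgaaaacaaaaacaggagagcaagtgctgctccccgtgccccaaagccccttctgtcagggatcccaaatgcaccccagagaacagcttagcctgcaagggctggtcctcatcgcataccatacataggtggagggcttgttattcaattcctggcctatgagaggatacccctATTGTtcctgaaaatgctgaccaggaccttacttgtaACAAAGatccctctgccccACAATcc
The Tie1 window held 2 ETS cores and 0 SOX cores, and the Tek window 3 SOX cores and 0 ETS cores. Such short words are common. Among 32851 RefSeq windows of this length, 39.2% held an ETS core and 38.8% a SOX core. Of 28 such windows, from the 24 of the 35 genes that matched, 11 (39.3%) held an ETS core and 12 (42.9%) a SOX core, both near the shares of all promoters.

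Nos3 encodes endothelial nitric oxide synthase. It had 715, 740.0 and 779 reads in Fezf2 KO and 734, 658 and 583 in wild type cortex, which overlapped (log2 0.18, SE 0.098, limma adjusted p = 0.673). Its exons overlap those of Atg9b and of an antisense transcript on the other strand. No source says whether the counting used strand, so reads of these genes cannot be told apart there. Notch4, a Notch receptor of endothelium, had a log2 change of 0.14, Eng, the TGF-beta co-receptor endoglin, of 0.05, and Robo4, an endothelial roundabout receptor, of 0.05. Dll4, the Notch ligand of arterial and tip cells, was the 1 gene of this role with a log2 change below 0 (-0.09), with 481 to 527 reads in Fezf2 KO and 524 to 547 in wild type cortex.

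Of the 4 barrier transport genes, 3 had a log2 change above 0 and 0 changed. Abcb1a encodes the efflux pump P-glycoprotein. It had 388, 361 and 359 reads in Fezf2 KO, against 336, 316 and 235 in wild type cortex, with no overlap (log2 0.34, SE 0.142, limma adjusted p = 0.527). The change was 0.18 without wild type 3. Its paralogue Abcb1b held 21.9 to 34.4 reads in Fezf2 KO and 29.2 to 33.7 in wild type libraries. Slc2a1, the glucose transporter GLUT1, had 3327, 2877 and 2995 reads in Fezf2 KO and 2956, 2415 and 2706 in wild type cortex. Its groups overlapped, as Fezf2 KO 2 lay below wild type 1 (log2 0.19, SE 0.087, limma adjusted p = 0.583). Mfsd2a, the lysolipid transporter that restrains transcytosis across the barrier, had 2527, 2196 and 2693 reads in Fezf2 KO and 2256, 2380 and 2109 in wild type cortex (log2 0.13, limma adjusted p = 0.751). Slco1c1, a thyroid hormone transporter of brain capillaries, had a log2 change of -0.12, with its lowest value in Fezf2 KO 1 (919) and 1073 to 1280 in wild type cortex.

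Among 6 transcription factor genes 4 had a log2 change above 0 and 0 changed. Sox18 and Sox17 encode SOXF factors of endothelial identity. Sox18 had 1041, 1172 and 1072 reads in Fezf2 KO and 961, 998 and 859 in wild type cortex (log2 0.22, SE 0.083, limma adjusted p = 0.458). Sox17 had 229.8, 229.9 and 229.6 reads in Fezf2 KO, against 218, 222 and 151 in wild type cortex (log2 0.24, SE 0.158, limma adjusted p = 0.756). Neither gene overlapped between genotypes. For Sox17 the gap to wild type 1 and 2 was a few reads, and the log2 change was 0.06 without wild type 3. Of the Sox17 exon bases 16.8% lie under an antisense transcript.

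Erg, an ETS factor that maintains endothelial cells, had 304, 234 and 230 reads in Fezf2 KO and 198, 270 and 216 in wild type cortex, with overlap (log2 0.17, limma adjusted p = 0.875). Ets1, another ETS factor, had 1360 to 1422 reads in Fezf2 KO and 1285 to 1510 in wild type cortex (log2 -0.02). Foxf2 and Foxc1 are neighbouring forkhead genes with roles in brain pericytes and, for Foxc1, in the meninges. Foxf2 had a log2 change of 0.14 and of -0.03 without wild type 3. Foxc1 had 246, 212 and 192 reads in Fezf2 KO and 413, 238 and 114 in wild type cortex. Its wild type values therefore lay on both sides of all Fezf2 KO values (log2 -0.06, 95% interval -0.96 to 0.84). The library with the highest Foxc1 value, wild type 1, was the one with the high meningeal sum, Col1a2 at 2336 reads included, against 211 to 297 in the other libraries. The part of meningeal tissue in the Foxc1 values was not tested.

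The 7 mural genes split by kind, a split that further mural genes did not share. Of the 4 pericyte genes 3 had a log2 change above 0, while all 3 genes of the contractile apparatus had one below 0; no gene of either kind changed. Without wild type 1 the log2 changes of Acta2 and Myl9 were both 0.02, above 0. Of contractile genes in the further mural list, Myh11 (log2 0.08), Mylk (0.08), Cald1 (0.07) and Lmod1 (0.03) lay above 0. Tpm2 (-0.11) lay below 0. Of pericyte genes in that list, Vtn (-0.14), Anpep (-0.20), Atp13a5 (-0.26) and Enpep (-0.28) lay below 0. Higd1b (0.21), Cspg4 (0.18), Cox4i2 (0.12) and Ndufa4l2 (0.07) lay above 0. Kcnj8 and Abcc9, neighbours on chromosome 6, encode the pore and the sulfonylurea receptor of the ATP-sensitive potassium channel of mural cells. Kcnj8 had 496, 420 and 465 reads in Fezf2 KO, against 378, 382 and 387 in wild type cortex. Abcc9 had 706, 636 and 657 reads in Fezf2 KO and 591, 586 and 302 in wild type cortex. In both channel genes the genotypes did not overlap, and the wild type values of Kcnj8 were close together whereas wild type 3 was far below the others for Abcc9. The log2 change was 0.26 for Kcnj8 (SE 0.092, limma adjusted p = 0.389) and 0.50 for Abcc9 (SE 0.237, limma adjusted p = 0.603). Without wild type 3 it was 0.27 for Kcnj8 and 0.18 for Abcc9.

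Pdgfrb, the pericyte receptor for PDGF-B, had 2075, 2316 and 2007 reads in Fezf2 KO and 2082, 1927 and 1560 in wild type cortex (log2 0.21, SE 0.110, limma adjusted p = 0.664). Its groups overlapped, and without wild type 3 the change was 0.09. Rgs5, a regulator of G protein signalling that marks pericytes, had 508, 407 and 329 reads in Fezf2 KO and 439, 413 and 403 in wild type cortex (log2 -0.03, SE 0.151, limma adjusted p = 0.985). Unlike most of the group, its spread lay in the Fezf2 KO libraries, with Fezf2 KO 1 highest and Fezf2 KO 3 lowest.

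The contractile genes Acta2, Tagln and Myl9 encode smooth muscle actin, transgelin and a myosin regulatory light chain. Tagln had 125, 134 and 132 reads in Fezf2 KO, against 163, 168 and 142 in wild type cortex. Its genotypes did not overlap (log2 -0.27, SE 0.122, limma adjusted p = 0.574). An antisense transcript covers 62.4% of its annotated exon bases, so its reads are uncertain in origin. Acta2 was low, at 24 to 52 reads per library. It had 34.9, 26.04 and 30.03 normalised reads in Fezf2 KO and 48.7, 42.8 and 20.6 in wild type cortex (log2 -0.21, SE 0.324, limma adjusted p = 0.931). Wild type 1 and 2 lay above all Fezf2 KO libraries and wild type 3 below them. Myl9 had 471 to 547 reads in Fezf2 KO and 498 to 582 in wild type cortex (log2 -0.05). Wild type 1, the library with high meningeal markers, had the highest value of Acta2 and Myl9, and the part of meningeal tissue in these values was not tested.

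Contractile genes are textbook targets of serum response factor, which binds CArG boxes, here the name for CC, then 6 bases of A or T, then GG. The 250 bases before the annotated starts of Acta2 (chr19:34255374-34255623, minus strand) and Myl9 (chr2:156775214-156775463, plus strand) are shown as examples. Wild type 1 was the highest library for both, as for 8 of the 35 genes (22.9%, against 13.4% of all genes tested), whereas Tagln was highest in wild type 2. A link between the boxes and the read counts was not tested. Capitals mark CArG boxes with at most 1 inner mismatch, from RefSeq on GRCm38.p6.
Acta2: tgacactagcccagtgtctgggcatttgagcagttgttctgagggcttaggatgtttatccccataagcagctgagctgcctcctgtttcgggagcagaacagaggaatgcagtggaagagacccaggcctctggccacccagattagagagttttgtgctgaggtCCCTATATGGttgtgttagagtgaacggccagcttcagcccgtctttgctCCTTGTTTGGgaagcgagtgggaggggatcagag
Myl9: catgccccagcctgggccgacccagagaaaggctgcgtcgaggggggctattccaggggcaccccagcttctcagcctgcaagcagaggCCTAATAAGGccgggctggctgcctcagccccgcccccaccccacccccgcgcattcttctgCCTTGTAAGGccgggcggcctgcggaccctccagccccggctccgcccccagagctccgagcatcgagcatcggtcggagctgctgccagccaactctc
Each window held 2 such boxes. In Acta2 both, CCCTATATGG and CCTTGTTTGG, had 1 inner mismatch, and in Myl9 CCTAATAAGG matched in full. Of all 32851 windows 8.59% held a box with at most 1 mismatch and 1.47% an exact one, against 4 (Acta2, Myl9, Eng and Ocln) and 1 of the 28 windows of the endothelial and mural genes.

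**Figure D4:**
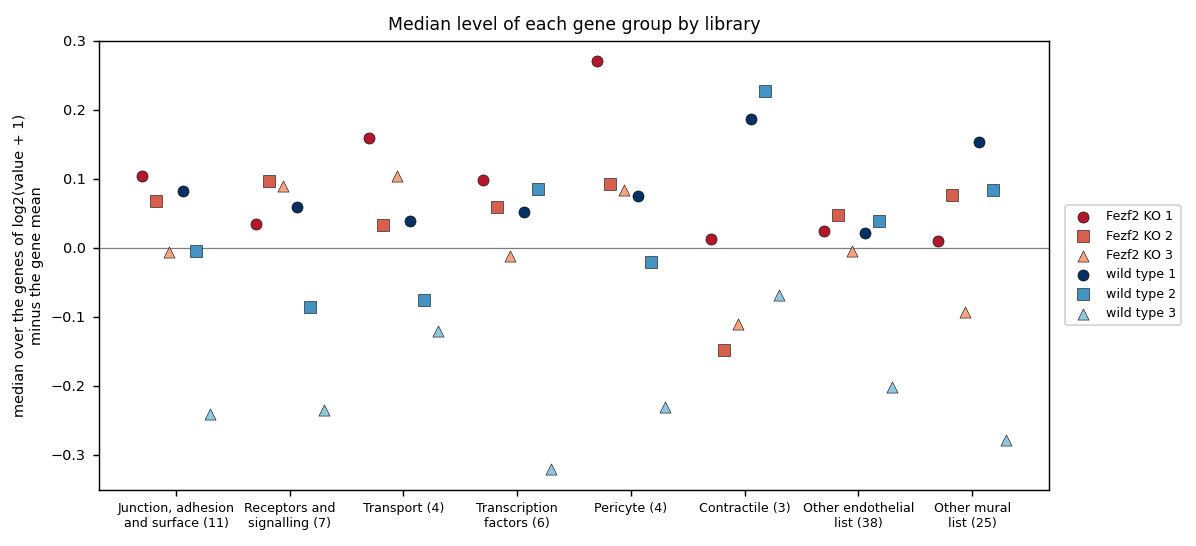
Median over the genes of each group of log2(normalised read count + 1) minus the gene mean (vertical axis), in each library; numbers in brackets are genes tested. Wild type 3 is the lowest library in each group shown other than the contractile genes, where Fezf2 KO 2 is lowest.

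The level of the genes can be compared with one another per exon length. Per kilobase of annotated exon (GENCODE M21), Cldn5 was the highest of the 35, with 3514 normalised reads in Fezf2 KO and 3125 in wild type cortex. Mfsd2a followed with 1099 in Fezf2 KO and 999 in wild type, then Slc2a1 with 875 in Fezf2 KO and 768 in wild type cortex, so that 3 barrier genes led. The highest mural genes were Myl9, with 443 reads per kilobase in Fezf2 KO and 458 in wild type, and Pdgfrb, with 389 in Fezf2 KO and 339 in wild type. Emcn was the lowest, with 7.85 reads per kilobase in Fezf2 KO and 9.41 in wild type cortex, next to Acta2 with 13.8 in Fezf2 KO and 17.01 in wild type. The range over the genes was far wider than any change between genotypes.

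**Figure D5:**
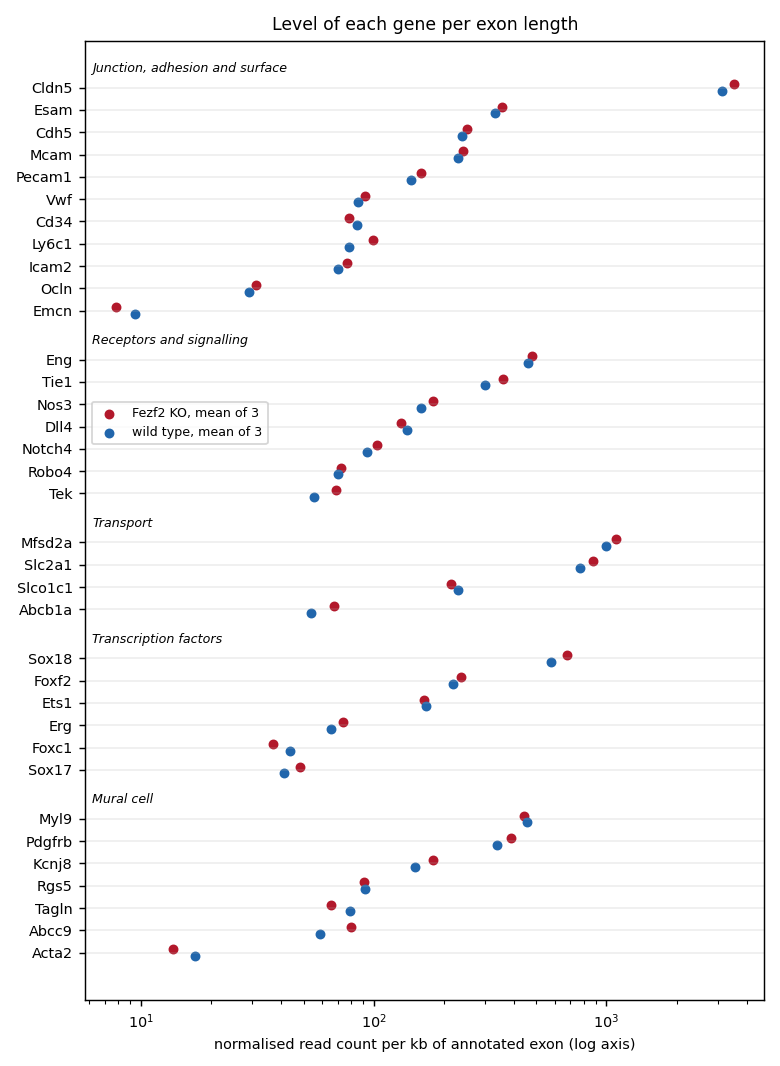
Mean normalised read count per kilobase of annotated exon (horizontal log axis) of each gene in Fezf2 KO (red) and wild type (blue), 3 libraries each, by role. Cldn5 (3514 in Fezf2 KO and 3125 in wild type) is the highest and Emcn (7.85 in Fezf2 KO and 9.41 in wild type) the lowest.

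In a second list, of 40 endothelial genes, 38 were tested and 0 changed by limma, edgeR or DESeq2. An unadjusted p under 0.05 in limma was reached by 3 (7.89%, against 9.03% of all genes), and 2 lay higher in Fezf2 KO without overlap (5.26%, against 7.6% of all genes). Of the 38, 28 had a log2 change above 0 (51% of all genes), the median was 0.11, and wild type 3 was the lowest library in 23 (20.1% of all genes). Efnb2, the arterial ephrin ligand that neurons also express, had 11071 to 12415 reads in Fezf2 KO and 10112 to 10118 in wild type cortex (log2 0.19, limma adjusted p = 0.245). Aplnr, the apelin receptor of sprouting endothelium, had 819 to 977 reads in Fezf2 KO and 546 to 760 in wild type cortex (log2 0.42, limma adjusted p = 0.316). Tm4sf1, a tetraspan protein of endothelial cells, had 35.02 to 48.7 reads in Fezf2 KO and 58.4 to 72.1 in wild type cortex (log2 -0.56, limma adjusted p = 0.371).

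Genes of barrier Wnt signalling, junctions and transport did not lean one way. Of 34 rows tested 17 had a log2 change above 0 (51% of all genes) and the median was -0.01. By limma or edgeR 0 changed, and 3 had an unadjusted p under 0.05 in limma (8.82%, against 9.03% of all genes). DESeq2 called 1, Axin2, and 2.3% of all genes. Axin2, a Wnt target that many cell types express, had 2195 to 2575 reads in Fezf2 KO and 1900 to 1987 in wild type cortex, with no overlap (log2 0.28, limma adjusted p = 0.176). The junction genes Cldn12 (log2 -0.25, limma adjusted p = 0.416) and Cgn (log2 -0.35, limma adjusted p = 0.4997) had lower means in Fezf2 KO cortex.

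Of 25 further mural genes tested 14 had a log2 change above 0, with a median of 0.06, and 0 changed by limma, edgeR or DESeq2. In limma 4 had an unadjusted p under 0.05, 2 higher and 2 lower in Fezf2 KO (16%, against 9.03% of all genes). Wild type 3 was the lowest library in 16 of the 25 (20.1% of all genes). Ednra, the endothelin receptor of mural cells, had 268 to 298 reads in Fezf2 KO and 188 to 242 in wild type cortex (log2 0.41, limma adjusted p = 0.283). Ebf1, a factor of pericytes that striatal neurons also express, had 84.4 to 399 reads in Fezf2 KO and 417 to 617 in wild type cortex (log2 -1.45, limma adjusted p = 0.342), and limma called it once Fezf2 KO 2 was left out. The summed level of 12 striatal genes, Ebf1 among them, was 3645 to 8545 in Fezf2 KO and 7967 to 11116 in wild type libraries, and their part in the Ebf1 values was not tested. Gja1, connexin 43, which mural, meningeal and glial cells express, had 541 to 812 reads in Fezf2 KO and 835 to 1719 in wild type cortex, highest in wild type 1 (log2 -0.68, limma adjusted p = 0.479).

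Among 12 genes of the VEGF and angiopoietin families, both ligands and receptors, 2 rose, 0 fell and 10 did not pass by limma, which called 0.712% of all genes. DESeq2 called 4 (2.3% of all genes), with Nrp1 higher and Angpt2 lower in Fezf2 KO in addition. Figf, which encodes VEGF-D, had 1172, 782 and 865 reads in Fezf2 KO, against 108, 105 and 130 in wild type cortex (log2 3.02, SE 0.163, limma adjusted p = 0.000146). Angpt1, the mural and neuronal ligand that activates TIE2, had 334, 353 and 313 reads in Fezf2 KO and 218, 170 and 174 in wild type cortex (log2 0.83, SE 0.126, limma adjusted p = 0.0293). Its log2 change lay between 0.77 and 0.95 with 1 library left out, but the adjusted p rose to between 0.0805 and 0.115 without wild type 2 or 3 or without any 1 of the Fezf2 KO libraries, and was 0.287 in litter m1 alone. Angpt2, the other main ligand of TIE2, had 20.3, 25.2 and 31.8 reads in Fezf2 KO, against 114, 57.6 and 70.5 in wild type cortex, with no overlap (log2 -1.57, limma adjusted p = 0.0604). Nrp1, a co-receptor for VEGF that neurons also express, had 3090 to 3452 reads in Fezf2 KO and 2488 to 2950.2 in wild type cortex (log2 0.29, limma adjusted p = 0.205). Tek and Tie1 were not called.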

How the data were processed

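Total RNA libraries of 6 newborn cortices were analysed, 3 per genotype. Per the submitters' processing notes, Bowtie, STAR, DESeq and the build mm9 were used; versions, strand and settings are not given in the sources used here. The deposited signal is a table of normalised values per gene that the values themselves show to be whole multiples of 1 step per library (100% within 0.006), as read counts divided by a size factor are. Dividing by the step gave 44978380 to 52872577 whole reads. Intervals and the floor of 3 reads cover counting error or the spread between these pups only.

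Limma (3.58.1, R 4.3.3) was fitted with genotype as the single term to log2(value + 1) of the 17557 genes that reached 10 in 3 or more libraries, with a variance trend. The threshold was a Benjamini-Hochberg adjusted p of 0.05. Log2 changes are Fezf2 KO over wild type, understated for low genes. The 35 genes, the other lists and the tests were chosen with earlier results of these data known. All 35 are named; values per library are given for the 3 lowest p of each role, genes without overlap and Pecam1, Cdh5, Cldn5, Pdgfrb and Rgs5. Genes of other lists are named if called, or else by the 3 lowest p. Outside these rules are Foxc1 and Acta2 per library, Ly6c2, Abcb1b, and the contractile and pericyte genes of the further mural list. Single markers of other tissues and cells were also named outside them.

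Alternatives were a pseudocount of 0.5, no filter, TMM rescaling, edgeR 4.0.16 with TMM or RLE factors and DESeq2 1.42.0 on recovered reads (121 genes called by edgeR with TMM factors), an adjusted p of 0.1, litter as a replicate block, each litter alone and each library left out. Litters come from the labels. Pearson's r of deviations from the genotype mean, across 17557 genes, was 0.213 between Fezf2 KO 3 and wild type 3 of litter m2. It was -0.137 to 0.223 between libraries of litter m1 and -0.162 to -0.038 between libraries of different litters. Deviations within a genotype sum to 0, so these values depend on one another. GENCODE M21 and RefSeq (GRCm38.p6) gave exon lengths, neighbours, overlaps and promoters only. Isoforms and reads were not analysed here.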

Additional observations from a re-analysis of the deposited data

How the results depend on the processing

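None of the 35 endothelial and mural genes was called under any alternative run. The median log2 change of the group minus that of all genes tested was 0.13, lay between 0.12 and 0.13 under another pseudocount, no filter, TMM rescaling, edgeR, DESeq2 and litter as a replicate block, was 0.06 in litter m1, and was 0.27 in litter m2 (1 library per genotype, an alternative added after seeing the data). Leaving out 1 library gave 0.04 (without wild type 3) to 0.21 (without wild type 1). Calls over all genes numbered 125; they were 138 with the litter block, 403 by DESeq2, 29 in litter m1, 222 at an adjusted p of 0.1, and 61 to 119 with 1 library left out, where fewer libraries alone can lower them. In litter m1 the direction turned for Foxf2 (-0.00609), Vwf (-0.026), Cdh5 (-0.043), Mcam (-0.015), Eng (-0.021) and Rgs5 (0.095). With 1 library left out the log2 change lay on both sides of 0 for 13 genes. It ranged from -0.54 to 0.38 for Foxc1, -0.58 to 0.017 for Acta2, -0.20 to 0.010 for Slco1c1, -0.055 to 0.16 for Robo4, -0.092 to 0.020 for Myl9, -0.030 to 0.15 for Eng, -0.087 to 0.029 for Ets1 and -0.19 to 0.12 for Rgs5. With the lowest value each time without wild type 3, it ranged from -0.0075 to 0.22 for Icam2, -0.028 to 0.26 for Foxf2, -0.13 to 0.27 for Vwf, -0.12 to 0.27 for Cdh5 and -0.0037 to 0.16 for Mcam. The direction of 22 of the genes held under every alternative run. The litter block changed no call among the 35 genes. The cause of these turns was not tested. Depth limits Acta2 and Emcn, at 24 to 60 reads per library. The part of sex, which set wild type 2 apart, was not tested; without that library the median was 0.18.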
